A study of Arabidopsis thaliana with 12 samples.

Results

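The size of the transcript response to auxin was compared between the *Arabidopsis thaliana* mutant arf2-6 and the Columbia wild type (WT). The comparison was made over the 11553 probe sets whose deposited value lay above 5.6439 log2 (a signal of 50, the lowest value in the data) on all 12 arrays. These were 81.3% of the 14215 probe sets tested, and the arrays carried 22810 in all. They were chosen by level alone, so that the lowest value could not create a difference between responses. Among the members, 6130 were listed with a single gene, 231 with several genes and 5192 with none.

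Total RNA came from whole light-grown seedlings cultured in liquid medium for 7 days. The 4 groups were arf2-6 given 5 µM indole-3-acetic acid (IAA, an auxin that plants make) for 2 h (arf2-6_IAA), arf2-6 given the solvent ethanol (arf2-6_control), WT given IAA (WT_IAA) and WT given ethanol (WT_control), with 3 arrays each. The labels do not describe the lesion of arf2-6, and no probe set was listed with *ARF2* (AT5G62000), so the genotype could not be checked on the transcript of the gene itself. Whether replicates came from separate cultures is not stated in the labels, so each p-value covers the spread between these arrays alone, and that spread may be technical.

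As background, auxin promotes the binding of Aux/IAA repressors to TIR1/AFB receptors and so their destruction. This releases the auxin response factors (ARFs), transcription factors that bind the promoters of auxin-responsive genes. *ARF2* encodes an ARF that acts mainly as a repressor, and its mutants are known for large seeds and organs and for late senescence. Early auxin-induced genes include the GH3 amido synthetases, which couple IAA to amino acids, and the Aux/IAA genes themselves.

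Over the members that responded to IAA, the response was of similar size in arf2-6 and in WT. *GH3.3* rose by 5.90 log2 in arf2-6 and by 5.78 log2 in WT, and the homeobox gene *HAT2* rose by 2.81 log2 in arf2-6 and by 2.99 log2 in WT. Over the 1597 members called for the IAA effect averaged over both genotypes, the arf2-6 response had a slope of 1.02 on the WT response (orthogonal regression) and a Pearson r of 0.956. For the difference between the 2 responses, 0 of the 11553 members passed an adjusted p under 0.05 (limma, Benjamini-Hochberg over all tested probe sets), against 0.113% of all tested probe sets. An unadjusted p under 0.05 was reached by 268 members (2.32%), fewer than this threshold passes where no response differs. The lowest adjusted p among them was 0.21. Departures ran both ways, as smaller rises or larger falls in arf2-6 and, for fewer genes, as larger rises or smaller falls in arf2-6. None passed the test.

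Among the control arrays 2 stood apart. The limma array weight was 0.293 for arf2-6_control replicate 2 and 0.331 for WT_control replicate 3, against 0.565 to 1.86 for the other arrays, and the deviations of these 2 arrays from their group means correlated with r = 0.639 across probe sets. Without both arrays the slope was 0.997, r was 0.955 and the number of members called for the difference was again 0. The medians over the members lay between 7.68 and 7.77 log2 on the 12 arrays. The number of arrays limits the precision.

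In arf2-6, 835 members (7.23%) passed the test for IAA, against 8.51% of all tested probe sets. Of these 332 rose and 503 fell, where all tested probe sets gave 3.75% higher and 4.76% lower. In WT, 799 members (6.92%) passed, against 8.40% of all tested probe sets. Of these 421 rose and 378 fell, where all tested probe sets gave 4.64% higher and 3.76% lower. The balance in WT turned with the scaling, to 386 higher and 427 lower after quantile normalisation and to 403 higher and 414 lower after median centring, while in arf2-6 the falls outnumbered the rises under both (338 against 465, and 351 against 469). With 1 array left out the number of falls went as low as 264 in arf2-6 (without arf2-6_IAA replicate 3) and 220 in WT (without WT_IAA replicate 2). The members thus held fewer calls than the tested probe sets as a whole in both genotypes, since tested probe sets outside the membership rule passed more often (14.1% in arf2-6 and 14.8% in WT).

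The calls of the 2 genotypes ran in the same direction. Of the members called in arf2-6, 827 of 835 (99.0%) had the same sign in WT, and of those called in WT, 790 of 799 (98.9%) had the same sign in arf2-6. Over all members, called or not, 71.2% had the same sign in both genotypes. Both tests called 549 members, which were 65.7% of the arf2-6 calls and 68.7% of the WT calls. Of these 276 rose in both genotypes, 273 fell in both and 0 moved in opposite directions.

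The 286 members called in arf2-6 but not in WT had a median response of 0.60 log2 in arf2-6 and of 0.34 log2 in WT along the direction called. In WT 179 of them had the same sign at an unadjusted p under 0.05. The 250 members called in WT but not in arf2-6 had a median of 0.33 log2 in arf2-6 and of 0.58 log2 in WT along the direction called, and 159 of them had the same sign in arf2-6 at an unadjusted p under 0.05. A call favours the genotype in which it was made, so these medians are descriptions. The difference between responses passed the adjusted test for 0 members of either set. An unadjusted p under 0.05 for it was reached by 50 of the 286 and 43 of the 250, against 2.32% of all members. Choosing members called in 1 genotype alone raises these counts, so they too are descriptions.

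For the averaged effect 1597 members were called (13.8%), against 15.1% of all tested probe sets. Of these 691 rose (background 6.83%) and 906 fell (background 8.30%). These members were used to describe the slope, since their selection favours neither genotype, although it does favour equal signs.

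**Figure D1:**
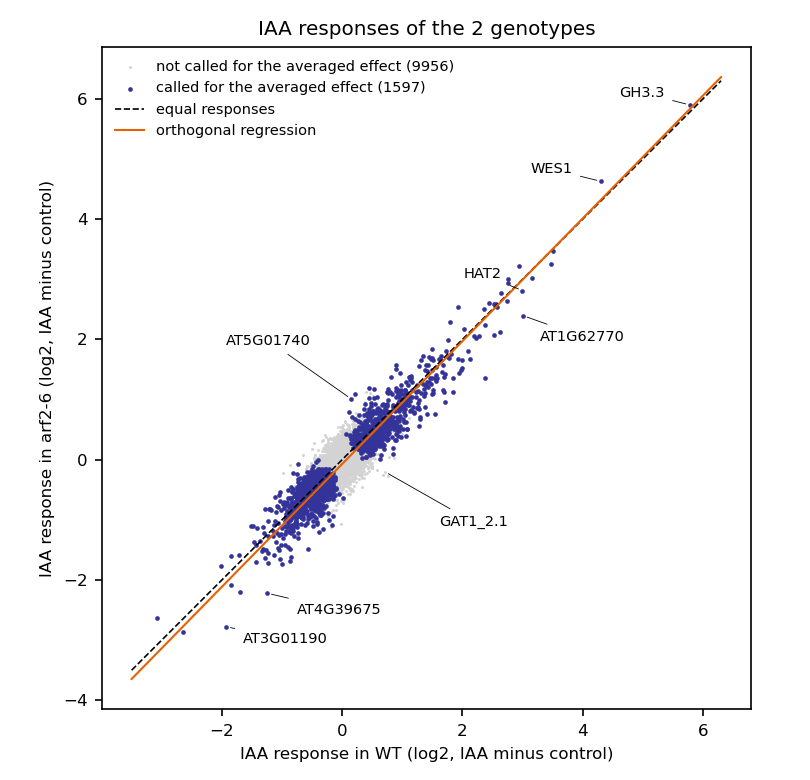
Response to IAA in arf2-6 (vertical axis) against the response in WT (horizontal axis), both as IAA minus control in log2 units, for the 11553 members. The 1597 members called for the averaged effect lie along the dashed line of equal responses, with an orthogonal slope of 1.02, and GH3.3 and WES1 stand at the upper end.

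The slope was 1.01 over the rising members (r = 0.910) and 1.17 over the falling members (r = 0.750), whose responses covered a narrower range. Over the members called in both genotypes it was 1.02 with r = 0.980. Over all 11553 members, with no choice by response, it was 1.05 with r = 0.838. Ordinary regression assigns all error to 1 genotype. Over the 1597 responding members it gave 0.975 for arf2-6 on WT and 1.07 with the roles exchanged and the line inverted. The same pair was 0.876 and 1.25 over all members and 0.841 and 1.50 over the falling members, so these 2 slopes depended on how error was assigned. The probe sets share the same 12 arrays and are not independent replicates, so no p is given for these values. With each array left out in turn, the slope over the responding members lay between 0.974 and 1.08 and r between 0.946 and 0.962.

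The mean level of the rising members was 8.22 ± 0.01 log2 in arf2-6_IAA and 7.51 ± 0.04 in arf2-6_control, against 8.33 ± 0.03 in WT_IAA and 7.56 ± 0.01 in WT_control (SD, n = 3 arrays each). The mean level of the falling members was 7.39 ± 0.02 log2 in arf2-6_IAA and 7.99 ± 0.07 in arf2-6_control, against 7.53 ± 0.01 in WT_IAA and 8.05 ± 0.06 in WT_control. Within each genotype the IAA and control arrays did not overlap, which the choice of these members fixes. The IAA arrays of arf2-6 lay below those of WT in both sets. The control means of arf2-6 were also lower in both sets, by less and with overlapping arrays, so the IAA levels alone do not give the difference in response.

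**Figure D2:**
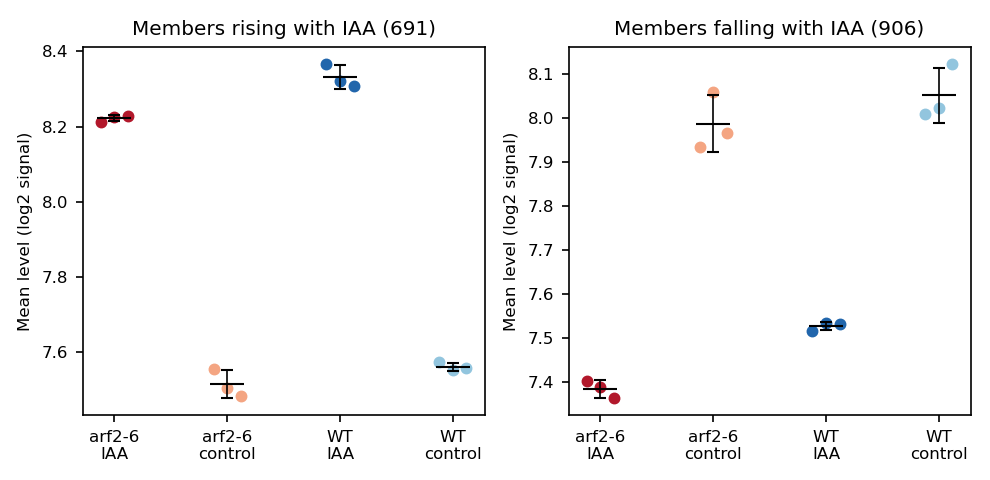
Mean log2 signal of the members that rose (left) and fell (right) in the averaged effect, for each array of the 4 groups. Points are arrays, and the bar and whiskers are the mean and SD over 3 arrays. The IAA arrays of arf2-6 lie below those of WT in both panels, and the control means of arf2-6 are also lower, with overlapping arrays.

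The difference between responses (arf2-6 response minus WT response, in log2 units) was small for most members. Over all members its SD was 0.194, beside a median standard error of 0.195, and 98.4% lay within 0.5 log2 of 0. An unadjusted p under 0.05 was reached by 268 members (2.32%), 72 with a positive and 196 with a negative difference. That share was below the 0.05 that the threshold itself passes where no response differs. Whether the test was conservative here was not tested, so the share does not show that the responses are alike. With each array left out in turn, the number of such members lay between 137, without arf2-6_IAA replicate 3, and 491, without WT_control replicate 1. The 95% interval of a member's difference reached a median of 0.43 log2 to each side. For 1467 of the 1597 responding members (91.9%) the whole interval lay within 1 log2 of 0, so a 2-fold difference lay outside it. Each interval holds for 1 member taken alone and rests on the spread between these arrays. For the other responding members a difference beyond 2-fold lay inside the interval, so a missed threshold does not show that the responses are alike.

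More members had a negative than a positive difference. The median difference was -0.03 log2 over all members, -0.07 over the rising members (426 of 691 negative) and -0.07 over the falling members (580 of 906 negative). A negative value means a smaller rise or a larger fall in arf2-6. Over all members the median was 0.002 after quantile normalisation and 0.006 after centring each array on its median, so its sign turned with the scaling. Over the rising and falling members it stayed negative, at -0.04 and -0.03 after quantile normalisation and at -0.04 for both after centring. With each array left out in turn it lay between -0.08 and -0.04 for the rising members. For the falling members it lay between -0.11, without WT_control replicate 3, and -0.03, without arf2-6_control replicate 2, which are the 2 arrays that stood apart.

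The strongest falls had a median difference further from 0, which was not tested against the other members. The 64 members that fell by 1 log2 or more in the averaged effect had median responses of -1.33 log2 in arf2-6 and -1.14 in WT, and 44 of them fell further in arf2-6. Their median difference of -0.22 log2 lay between -0.28 and -0.16 with each array left out in turn, and it was -0.18 after quantile normalisation and -0.19 after centring. The 141 members that rose by 1 log2 or more had median responses of 1.36 log2 in arf2-6 and 1.44 in WT, with a median difference of -0.07 and 80 negative values. That median lay between -0.10, without arf2-6_control replicate 2, and -0.007, without WT_IAA replicate 1. No p is given for these sets because their members are not independent.

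**Figure D3:**
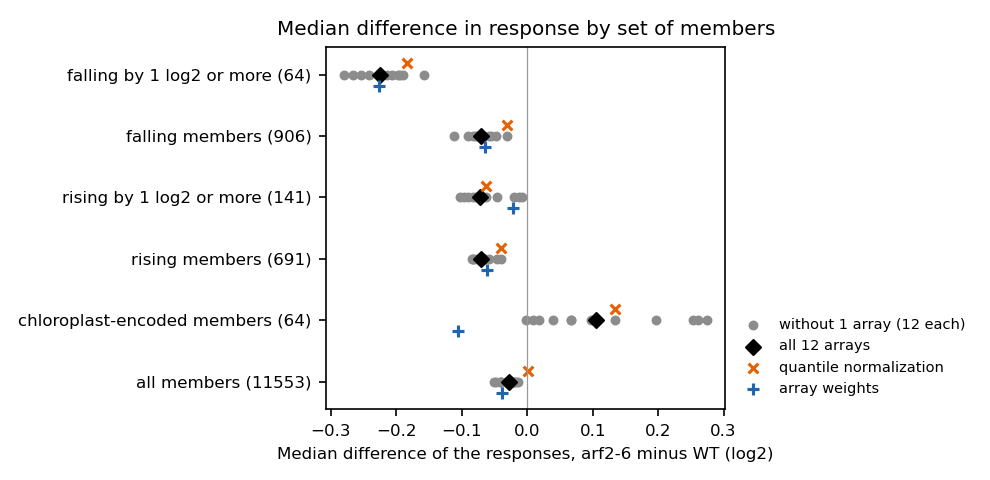
Median difference between responses (arf2-6 minus WT, log2) for sets of members, with all 12 arrays (diamonds), without 1 array (dots), after quantile normalisation (x) and with array weights (+). Each set of members that rose or fell stays below 0 in every setting drawn, with the falls of 1 log2 or more furthest from it. The chloroplast-encoded members lie on both sides of 0.

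The genes with the largest averaged rises rose in both genotypes, which choosing them by the average favours. Among them were *GH3.3* and *WES1*, GH3 amido synthetases, and *HAT2*, an auxin-induced homeodomain leucine zipper factor. *GH3.3* (AT2G23170) had 12.56, 12.61 and 12.62 log2 in arf2-6_IAA, 7.43, 6.18 and 6.49 in arf2-6_control, 12.87, 12.82 and 12.34 in WT_IAA and 7.41, 6.98 and 6.29 in WT_control. Its IAA arrays lay far above its control arrays in both genotypes. The rise was 5.90 ± 0.32 log2 in arf2-6 (SE, adjusted p = 7.62e-07 by limma) and 5.78 ± 0.32 log2 in WT (SE, adjusted p = 7e-07 by limma), and the difference was 0.12 log2 with a 95% interval of -0.88 to 1.11.

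*WES1* (AT4G27260) had 11.39, 11.62 and 11.66 log2 in arf2-6_IAA, 6.98, 6.29 and 7.50 in arf2-6_control, 11.77, 11.15 and 10.99 in WT_IAA and 7.25, 7.59 and 6.16 in WT_control. The IAA and control arrays did not overlap in either genotype, and the control arrays were widely spread. It rose by 4.63 log2 in arf2-6 and by 4.30 log2 in WT, with a difference of 0.33 log2 (interval -0.83 to 1.48). The third GH3 member, *GH3.17*, did not pass the test in either genotype, with 0.10 log2 in arf2-6 and 0.03 in WT.

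*HAT2* (AT5G47370) had 10.66, 10.52 and 10.66 log2 in arf2-6_IAA, 8.04, 7.87 and 7.50 in arf2-6_control, 10.85, 11.02 and 10.98 in WT_IAA and 8.08, 8.07 and 7.71 in WT_control. The IAA arrays lay above the control arrays in both genotypes. Its difference was -0.18 log2 with an interval of -0.62 to 0.25.

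Of the 10 single-gene members with the largest averaged rise, all passed the test in both genotypes, with rises of 2.06 to 5.90 log2 in arf2-6 and 2.19 to 5.78 in WT. Their choice by the averaged rise favours passing in both. The difference was positive for 4 and negative for 6. *AT2G39980*, of the BAHD acyltransferase family, rose by 2.94 log2 in arf2-6 and 2.76 in WT. *AT3G26760*, of the short-chain dehydrogenase family, rose by 2.64 log2 in arf2-6 and 2.74 in WT, and *AT2G41380*, of the methyltransferase superfamily, rose by 2.54 in arf2-6 and 2.58 in WT.

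The 10 single-gene members with the largest averaged fall all passed the test in arf2-6, and 9 of them passed in WT, which their choice likewise favours. The difference was negative for 9 of the 10, so that the fall was larger in arf2-6. *AT4G30170*, a class III peroxidase, had 8.51, 8.86 and 8.42 log2 in arf2-6_IAA, 10.23, 10.44 and 10.28 in arf2-6_control, 9.58, 10.03 and 9.62 in WT_IAA and 10.96, 10.84 and 11.13 in WT_control. Its IAA arrays lay below its control arrays in both genotypes, and arf2-6 lay below WT under either treatment. It fell by 1.72 log2 in arf2-6 and fell by 1.24 log2 in WT.

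*SFP1*, a sugar transporter gene, fell by 1.58 log2 in arf2-6 and fell by 1.13 log2 in WT. *AT5G07580*, an ERF family transcription factor, fell by 1.48 log2 in arf2-6 and fell by 1.07 log2 in WT. *AT2G17710* fell by 1.68 log2 in arf2-6 and fell by 0.87 log2 in WT. The exception in direction was *AT3G01260*, which fell by 1.77 log2 in arf2-6 and fell by 2.01 log2 in WT. *AT1G14960*, a major latex protein-like gene, fell by 1.73 log2 in arf2-6, against -0.99 log2 in WT, where its adjusted p was 0.097 (limma).

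**Figure D4:**
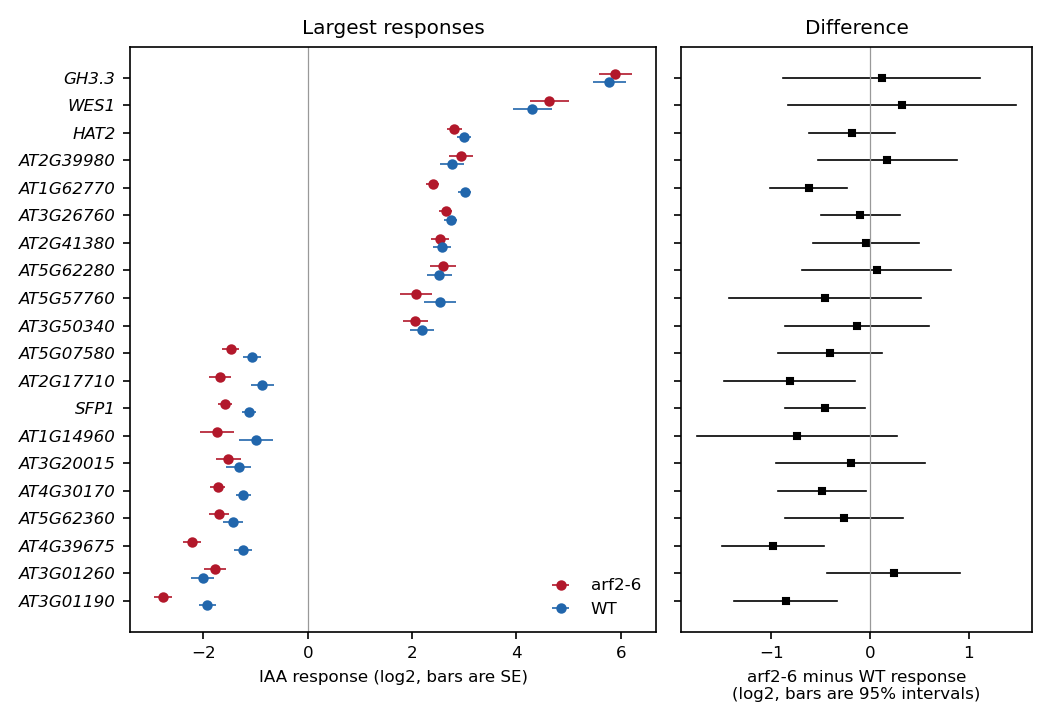
Responses to IAA of the 10 single-gene members with the largest averaged rise and the 10 with the largest averaged fall (log2, with standard errors), and the difference between the 2 responses with its 95% interval. Among the rises the 2 genotypes lie furthest apart for AT1G62770 (-0.62), and the difference is below 0 for every fall drawn except AT3G01260, at 0.24.

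The departing members are given as values, since none passed the adjusted test. The difference exceeded 1 log2 for 3 members, all negative. The largest, -1.05 log2 for *AT2G17850*, had an interval of -2.55 to 0.46 and an unadjusted p of 0.155 (limma), with arrays that overlapped in both genotypes. Probe set 267084_at, not listed with a gene, had -1.04 log2 (interval -1.97 to -0.11), and 259018_at is described with the other probe sets that have no gene. For the rest, single-gene members with an unadjusted p under 0.01 were named up to 10 a side, which gave 5 positive and 10 negative differences. Their adjusted p lay between 0.21 and 0.85 (limma). They were picked for the size of the difference, so that size is a description.

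*AT5G01740* had 8.27, 8.25 and 8.70 log2 in arf2-6_IAA, 7.45, 7.47 and 7.27 in arf2-6_control, 7.89, 7.82 and 7.89 in WT_IAA and 7.81, 7.65 and 7.68 in WT_control. IAA arrays lay above control arrays in both genotypes, by a small margin in WT. It rose by 1.01 log2 in arf2-6, against a response of 0.15 in WT that did not pass the test, and the difference was 0.86 (interval 0.47 to 1.25, adjusted p = 0.24 by limma).

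*AT5G66650*, of the calcium uniporter family, had 7.47, 7.26 and 7.59 log2 in arf2-6_IAA, 6.11, 6.22 and 6.41 in arf2-6_control, 6.99, 6.49 and 6.55 in WT_IAA and 6.26, 6.06 and 6.38 in WT_control. Its IAA arrays lay above its control arrays in both genotypes, narrowly in WT. It rose by 1.19 log2 in arf2-6, against 0.44 in WT, which did not pass the test. The difference was 0.75 log2 (interval 0.27 to 1.23, adjusted p = 0.75 by limma).

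The other positive departures were smaller. *AT2G33170*, a leucine-rich repeat receptor-like kinase, gave 0.34 log2 in arf2-6 and -0.11 in WT, *AT1G67760* gave 0.26 in arf2-6 and -0.23 in WT, and *AT1G30600*, a subtilase, gave -0.01 in arf2-6 and -0.41 in WT. The lowest array of *AT1G67760*, at 5.65 log2 in WT_IAA, lay close to the lowest deposited value.

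Among the negative departures, 3 genes showed a response in WT and little in arf2-6. *GAT1_2.1* (AT1G15040), a glutamine amidotransferase-like gene, had 6.49, 6.44 and 6.16 log2 in arf2-6_IAA, 6.65, 6.41 and 6.63 in arf2-6_control, 7.58, 7.36 and 6.99 in WT_IAA and 6.66, 6.73 and 6.42 in WT_control. The groups overlapped in arf2-6 and did not in WT. It gave -0.20 log2 in arf2-6 (not called) and rose by 0.71 in WT, with a difference of -0.91 (interval -1.40 to -0.41, adjusted p = 0.46 by limma).

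*AT2G47560*, a RING-type ubiquitin ligase of the ATL family, had 5.99, 6.00 and 5.94 log2 in arf2-6_IAA, 5.94, 6.11 and 5.82 in arf2-6_control, 6.64, 6.67 and 6.75 in WT_IAA and 6.12, 5.94 and 6.14 in WT_control. The groups overlapped in arf2-6, while every WT_IAA array lay above every WT_control array. It gave 0.02 log2 in arf2-6 and rose by 0.62 in WT, with a difference of -0.61 (interval -0.87 to -0.34) and the lowest adjusted p of any member, 0.21 (limma). Its values lie close to the lowest deposited value.

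The chitinase gene *CHI* gave -0.14 log2 in arf2-6, where it was not called, and rose by 0.49 log2 in WT. *AT5G25440*, a protein kinase, gave 0.38 log2 in arf2-6, where its adjusted p was 0.051 (limma), and rose by 0.99 log2 in WT. Both had arrays close to the lowest deposited value, down to 5.70 log2 in WT_control for *CHI* and 5.68 in arf2-6_control for *AT5G25440*.

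Other negative departures were larger falls. *AT4G39675* had 7.23, 7.10 and 7.00 log2 in arf2-6_IAA, 9.19, 9.57 and 9.23 in arf2-6_control, 7.93, 8.61 and 7.99 in WT_IAA and 9.37, 9.44 and 9.45 in WT_control. The control levels of the 2 genotypes overlapped, and the IAA level of arf2-6 lay below that of WT. It fell by 2.22 log2 in arf2-6 and fell by 1.24 log2 in WT, with a difference of -0.98 (interval -1.50 to -0.46, adjusted p = 0.43 by limma).

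*AT3G01190*, a class III peroxidase, had 6.33, 6.05 and 6.10 log2 in arf2-6_IAA, 8.66, 9.32 and 8.84 in arf2-6_control, 7.05, 7.42 and 7.28 in WT_IAA and 9.01, 9.25 and 9.25 in WT_control. As for *AT4G39675*, the genotypes overlapped without IAA and did not with it. It fell by 2.78 log2 in arf2-6 and fell by 1.92 log2 in WT (interval of the difference -1.38 to -0.33). *AT5G63180*, of the pectate lyase family, had 7.17, 7.29 and 7.29 log2 in arf2-6_IAA, 8.22, 8.50 and 8.26 in arf2-6_control, 7.70, 7.77 and 7.90 in WT_IAA and 8.19, 8.11 and 8.30 in WT_control. Its IAA arrays lay below its control arrays in both genotypes. It fell by 1.08 log2 in arf2-6 and fell by 0.41 log2 in WT, with a difference of -0.66 (interval -0.99 to -0.34).

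*AT5G46230* fell by 0.67 log2 in arf2-6, against 0.03 in WT. *AT1G30090*, a kelch repeat protein, gave -0.28 log2 in arf2-6 and 0.32 in WT and was called in neither. The departure of *AT1G62770*, a pectin methylesterase inhibitor gene, lay within a rise in both genotypes of 2.39 log2 in arf2-6 and 3.01 in WT, with a difference of -0.62 (interval -1.01 to -0.23).

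**Figure D5:**
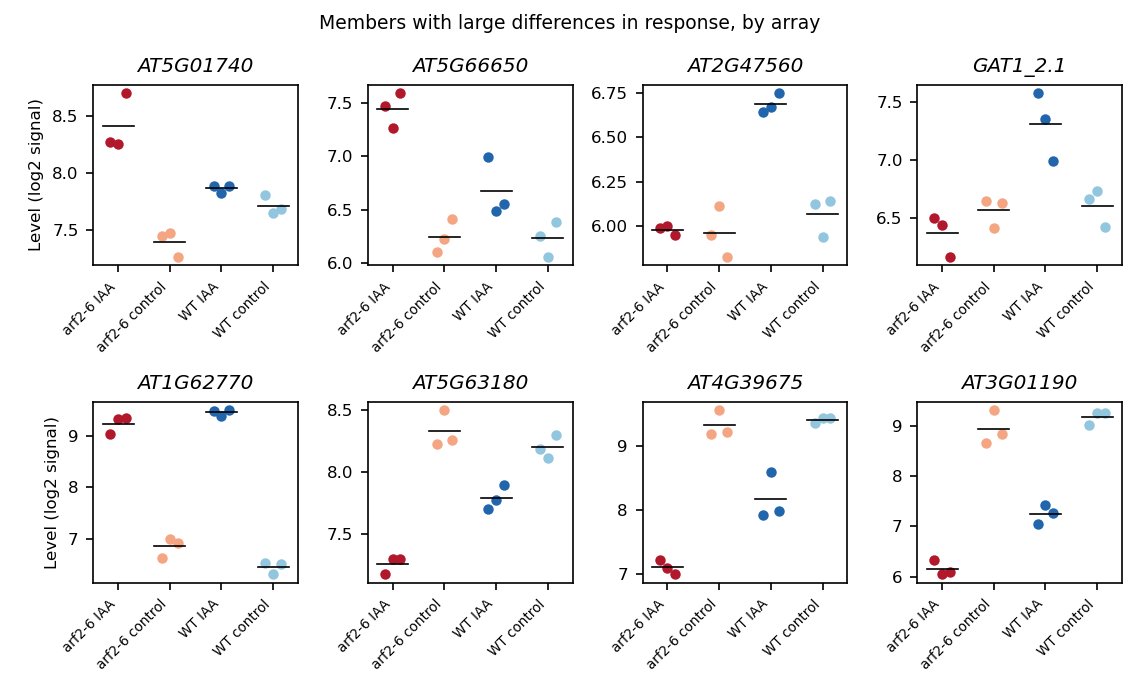
Log2 signal on each of the 12 arrays for 8 of the 15 single-gene members named for a departure, in the groups arf2-6_IAA, arf2-6_control, WT_IAA and WT_control. GAT1_2.1 and AT2G47560 show overlapping arf2-6 groups beside separate WT groups, while AT4G39675 and AT3G01190 fall in both genotypes and further in arf2-6.

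Members not listed with a gene departed by similar amounts. The largest positive difference of any member was 0.89 log2, for probe set 245325_at (interval 0.38 to 1.40). It had 10.05, 10.24 and 10.47 log2 in arf2-6_IAA, 8.99, 9.12 and 9.37 in arf2-6_control, 9.05, 8.83 and 9.27 in WT_IAA and 9.15, 8.73 and 8.66 in WT_control. It rose in arf2-6, where the groups did not overlap, and was not called in WT, where they did. Probe set 259018_at rose by 1.36 log2 in arf2-6 and by 2.37 log2 in WT (interval of the difference -1.66 to -0.35). Probe set 250007_at rose by 1.58 log2 in arf2-6 and by 0.89 log2 in WT. Probe set 248636_at fell by 1.49 log2 in arf2-6, against -0.57 in WT, which was not called.

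Lists of auxin and tissue genes held few members, so they are described by counts. Of 29 Aux/IAA genes listed, the members included *IAA18* alone, with 0.27 log2 in arf2-6 and 0.48 in WT, called in neither. It was called for the averaged effect, at 0.37 log2 (adjusted p = 0.038 by limma). Of the 6 cell wall members (expansins, which loosen walls, and XTHs, which remodel xyloglucan), *XTH19*, *XTH18* and *EXPA4* rose in both genotypes and the other 3 were called in neither. Of those 3, *XTH16* was called for the averaged effect, at -0.75 log2 (adjusted p = 0.014 by limma). Over all members 276 of 11553 (2.39%) rose in both. *EXPA4* rose by 1.54 log2 in arf2-6 and by 1.56 in WT, and *XTH19* rose by 1.56 in arf2-6 and by 1.28 in WT. *RTE1*, a regulator of the ethylene receptor, rose by 0.89 log2 in arf2-6 and by 1.00 in WT. No ARF or TIR1/AFB gene, auxin transport gene or SAUR gene was a member with a single-gene probe set. The median difference over the 6 cell wall members was -0.06 log2, beside -0.03 over all members.

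The root hair markers *AT4G26010*, *EXPA7* and *AT1G30870* were members and had negative differences, from -0.66 to -0.30 log2, with 0 called in either genotype. *AT1G30870*, a root hair peroxidase gene, averaged 7.43 ± 0.165 log2 in arf2-6_IAA and 8.12 ± 0.197 in arf2-6_control, against 8.81 ± 0.329 in WT_IAA and 8.84 ± 0.456 in WT_control (SD, n = 3 each), so its level was lower in arf2-6 under either treatment. Of 14 root hair markers listed, 3 were members, and the part of root hairs in the departures was not tested. The leaf markers *RCA*, *LHCB4.1* and *LHCB4.2* had differences from -0.02 to 0.08. The reference gene *AT4G34270* had a difference of -0.32 log2 (unadjusted p = 0.047, adjusted p = 1.00 by limma), and *PEX4* had 0.002. In bulk RNA fewer cells of a type and less RNA per cell cannot be told apart.

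The 64 chloroplast-encoded members had a median response of 0.03 log2 in arf2-6 and -0.11 in WT, with 0 called in either genotype. Their median difference of 0.10 log2, positive for 52, lay between -0.003 and 0.28 with each array left out in turn. It was -0.11, with 46 negative, under array weights, so its direction was not settled by these arrays. The lowest value came without arf2-6_control replicate 1. The 26 probe sets of genes neighbouring *ARF2* had a median difference of -0.02 log2, and 0 were called for it.

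The rule that every array lie above the lowest value left out all the calls for the difference. Over the 14215 tested probe sets 16 were called (0.113%), 2 with a higher (0.0141%) and 14 with a lower (0.0985%) response in arf2-6, and all 16 lay outside the members. In each of the 16, WT_control lay at the lowest value on 2 or 3 arrays, so their differences are fitted values and not measured sizes. The members just inside the threshold, *AT2G20440* and *AT4G26980*, had differences of -0.01 and -0.31 log2. Just outside it, *AT1G33680* and *rpoB* had 0.08 and 0.07.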

How the data were processed

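Total RNA of 12 seedling samples was hybridised to Affymetrix arrays. Each array held a log2 signal per probe set, as the authors deposited it, with no value below 5.6439. The summarisation and scaling behind these signals were not given in the sources used here, and no further scaling was applied. Testing left out 64 AFFX controls and the probe sets with the lowest means. The cut was set at 30%, but it fell among tied means, and the tied probe sets were dropped together. The filter thus removed 8531 probe sets, each with a signal of 5.6439 log2 throughout, and left 14215. Gene names came from the platform annotation, updated through a TAIR10.1 gene table. A single limma fit (limma 3.58.1, R 4.3.3) had 1 mean per group, 8 residual degrees of freedom and a prior variance with a trend on mean signal. Tests were two-sided, with Benjamini-Hochberg adjustment over all tested probe sets and a call at an adjusted p under 0.05. Plots were made in Python 3.11.15. The fit was also run on simulated data with independent noise and with changes placed only in members of high signal. That run does not give the power for the members as a whole. The labels gave groups and replicate numbers.

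Named genes were single-gene members: the 10 largest averaged rises and falls, and, where fewer than 5 were called, up to 10 a side with the largest difference and an unadjusted p under 0.01. The members and the gene lists were chosen with earlier results of these data known. Alternatives left out each array in turn or 2 control arrays, added the replicate number as a block or array weights, and changed the scaling, filter, variance prior, threshold and regression. Sequences and promoters were not used here.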

Additional observations from a re-analysis of the deposited data

Results flagged for a closer look

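Outside the members, 16 tested probe sets were called for a difference between the responses, of which 10 were listed with a single gene. All are fitted values that rest on groups at the lowest deposited value. They are not measured sizes, and a group at that value throughout shows no spread. The adjusted p lay under 0.05 in limma for each.

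IAA20, an Aux/IAA gene, had a difference of 1.48 log2, with 7.45, 6.78 and 7.41 log2 in arf2-6_IAA and 5.84, 5.64 and 5.69 in arf2-6_control, against 5.64, 5.64 and 5.68 in WT_IAA and 5.64 on all 3 WT_control arrays. It stayed called in 3 of 12 fits that left out 1 array. PUCHI, an AP2 factor of lateral root development, had a difference of -0.87 log2, and its IAA arrays held 5.64, 5.85 and 5.87 log2 in arf2-6 and 6.66, 6.79 and 6.53 in WT, with all 6 control arrays at the lowest value. It stayed called in 6 of those 12 fits.

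The differences of the other single-gene probe sets were -0.60 log2 for AT3G57950, -1.13 for AT3G61930, -0.86 for AT5G67430, -1.05 for AT5G14130, -0.47 for AT1G19230, -0.72 for AT5G51380, -0.36 for AT4G15700 and -0.78 for UGT76D1. AT3G57950 and the unlisted probe set 260376_at remained called in all 12 cases with 1 array left out, and the others of the 16 in 2 to 6 of the 12. In AT3G57950 only the WT_IAA arrays lay above the lowest value, and in 260376_at the control arrays of both genotypes lay at it. A group at that value shows no spread whichever of its arrays is left out.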

How the results depend on the processing

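Over all tested probe sets the count of 16 differences was 2 to 46 with 1 array left out, 6 without the 2 control arrays that stood apart, 3 with median centring, 0 with the fit over the members only, 8 without the variance trend and 5 with the robust prior; the cause was not tested. Among the members it was 0 to 1 with 1 array left out, the 1 being AT1G14200 without WT_IAA replicate 3, and 0 in each other setting run. The arf2-6 count of 835 was 493 to 941 with 1 array left out (493 without arf2-6_IAA replicate 3), 1360 with array weights and 468 for members above a signal of 100. The WT count of 799 was 517 to 877 with 1 array left out (517 without WT_IAA replicate 2) and 450 above a signal of 100, a setting that holds fewer members. The slope was 0.974 to 1.08 with 1 array left out, and the agreement was 0.838 over all members and 0.904 as Spearman's rho. The replicate block gave 6 differences over all tested probe sets and 0 among the members. Over all pairs of groups, same-numbered arrays correlated from -0.50 to 0.51 in their deviations. Within a genotype, same-numbered IAA and control arrays gave 0.30, 0.03 and 0.30 in arf2-6 and -0.09, 0.32 and 0.51 in WT. Differently numbered ones gave -0.32 to 0.05 in arf2-6 and -0.56 to 0.35 in WT. The block shared its numbers across genotypes, and pairing within a genotype was not tested. Of 1155 named-gene values under alternatives 1148 kept their call, 5 lost it (AT2G17710 in WT), 2 gained it (AT1G14960 in WT) and 0 reversed; the departing members reached an adjusted p of 0.097 at the lowest.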
